A study of Mus musculus with 12 samples.

Results

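The genes described here were the expressed members of the Zfp series of mouse zinc finger genes. A gene entered when its symbol was Zfp followed by a number, occurred once per file, and reached at least 2 FPKM in each of the 8 libraries of cultured spermatogonial stem cells (SSCs) and c-KIT+ cells. Of 336 such symbols 211 met this floor, of 22293 unique symbols in all. FPKM are fragments scaled to the length of the transcript and to the depth of the library. The levels in the 8 cultured libraries therefore chose the genes, and a Zfp gene that fell under the floor in any of these libraries is not among them. Just inside the floor were Zfp760, Zfp964 and Zfp94, whose lowest levels were 2.002, 2.02 and 2.053 FPKM, and just outside were Zfp934, Zfp185 and Zfp825 at 1.982, 1.905 and 1.892 FPKM.

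All mice were males of the CBA/C57 strain. The knockout (KO) disrupted Zmym3, a gene on chromosome X, by Cas9 and a pair of guides to an early exon. It left small deletions that shift the reading frame and did not take out the whole gene. SSC lines were set up from KO mice and their wild-type (WT) littermates. There were 2 libraries each of WT SSCs, KO SSCs, WT c-KIT+ cells and KO c-KIT+ cells, all labelled as from 2-month mice, although the methods describe lines from pups or adults. The c-KIT+ cells, which are premeiotic, were made from the SSCs of each genotype with 100 nM retinoic acid (RA) for 36 h. Spermatocytes were sorted from testes as large tetraploid cells, mostly but not purely pachytene, and gave 1 library per genotype at 5 and at 7 months. Nothing states that the 2 libraries of a group came from separate cultures or lines, so p-values cover no more than library-to-library spread, and this may be technical.

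Zmym3 was at 40.2 and 37.4 FPKM in WT SSCs and at 9.19 and 9.76 in KO SSCs, at 39.9 and 39.7 in WT and 10.0 and 11.3 in KO c-KIT+ cells, and between 0.146 and 0.46 in the 4 spermatocyte libraries. The low level in spermatocytes cannot check their genotype labels. The labelled cell states had their markers. Summed over 11 genes of undifferentiated spermatogonia, the level was 411 to 438 FPKM in WT SSCs and 210 to 213 in WT c-KIT+ cells. For 6 genes of differentiating spermatogonia it was 148 to 159 and 847 to 875 FPKM, and for 8 pachytene genes it was 3910 to 4040 FPKM in WT spermatocytes. The spacing of the smallest values gave relative depths of 0.91 to 1.22, with 5-month WT spermatocytes as 1, and in those spermatocytes the 211 genes had a median of 130 fragments. The first WT SSC library stood apart by a small RNA, Mir3064, at 26700 FPKM and the first KO c-KIT+ library by Snord33 at 6920 FPKM.

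Zfp genes mostly encode proteins with C2H2 zinc fingers, short loops in which a pair of cysteines and a pair of histidines hold a zinc ion, and which line up in arrays that read DNA. The largest class carries a KRAB domain in front of the fingers. This domain binds TRIM28, which gathers SETDB1, heterochromatin protein and other silencing factors, and many KRAB genes lie in tandem arrays and silence retroelements, while others keep imprints. Other Zfp proteins have no KRAB domain and act at promoters, on RNA, in ubiquitin ligation or on the spindle.

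The reference showed the same mixture. All 211 genes were matched to RefSeq, 10 of them by a newer symbol, such as Zbtb14 for Zfp161 and Zbtb18 for Zfp238. In the longest reading frame of their protein-coding transcripts, 205 had at least 1 C2H2 pattern and the median number was 10. Zfp142 had the most, 36, followed by Zfp462 with 33. The 6 without a pattern were Zfp36, Zfp259, Zfp330, Zfp365, Zfp703 and Zfp839. A KRAB-type pattern was found in 89 and not in 122. The pattern was strict and missed some KRAB genes, such as Zfp445. Stretches of 50 bases were shared with other genes over more than 10% of the transcript for 21 members, among them Zfp82 (94.4%, with Gm26920), Zfp600 (83.3%, with Rex2) and Zfp534 (68.4%, with Zfp987), so that reads may have been split between copies and the levels of these genes are uncertain. Another 108 shared none. The loci of 13 members overlapped another listed gene, and since strand was not stated reads of overlapping genes cannot be told apart.

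RefSeq promoters of GRCm38.p6 (250 bases before to 50 after the first listed start) were given for 170 of the 211 genes. They were rich in CpG, with a median of 16 against 7 over 27025 promoters. The 10-base word of NRF1, which is its own reverse complement and stands in capitals in the stretches below, was in 8 of the 170 (4.71%) and in 0.977% of all promoters, and the ETS word CCGGAAG, searched on both strands, was in 36 (21.2%) against 9.12%. AACNGTT, the word of MYB factors, was in 4.12% against 4.36%, CNCCTCAG, that of STRA8, in 6.47% against 7.97%, and TGACGTCA, that of CREB and CREM, in 2.94% against 1.88%, each on both strands. No word searched lies within another, and a match is a description of letters and not a bound site. The NRF1 and ETS words themselves contain CpG, and the 27025 promoters include those of genes not expressed here. No share was taken over promoters alike in CpG or over genes at the floor. Whether these shares are particular to the Zfp genes was not tested. The 8 stretches with the NRF1 word are shown because this word had the largest ratio of its share to that in all promoters, although the ETS word differed by more percentage points, with the word in capitals and the 10 bases on either side in lower case.
Zfp213 (chr17:23564252-23564281, minus strand): gcttatccccGCGCATGCGCcagctggttt
Zfp329 (chr7:12818843-12818872, minus strand): accaggatctGCGCATGCGCagttgttgcg
Zfp334 (chr2:165388289-165388318, minus strand): ccgagactctGCGCATGCGCggtctcctag
Zfp639 (chr3:32510559-32510588, plus strand): gcccgctgtgGCGCATGCGCggggtgacgg
Zfp653 (chr9:22071470-22071499, minus strand): gacggactacGCGCATGCGCagctatggct
Zfp658 (chr7:43562162-43562191, plus strand): aaatagtagcGCGCATGCGCttcgccagcc
Zfp719 (chr7:43579521-43579550, plus strand): cagtggtggtGCGCATGCGCgccacccagg
Zfp82 (chr7:30072920-30072949, minus strand): agtgagtgtgGCGCATGCGCacgcggtgcg
Of these, Zfp639 recurs among the genes that differed by genotype and Zfp653 among those that were higher in spermatocytes.

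The 250 bases before the start are shown for 3 genes on which the comparisons turned: Zfp710 (the largest decrease in spermatocytes on the log2(FPKM + 1) scale), Zfp229 (the largest difference by genotype) and Zfp956 (the largest increase in spermatocytes). Capitals mark CpG.
Zfp710 (chr7:80024564-80024813, plus strand): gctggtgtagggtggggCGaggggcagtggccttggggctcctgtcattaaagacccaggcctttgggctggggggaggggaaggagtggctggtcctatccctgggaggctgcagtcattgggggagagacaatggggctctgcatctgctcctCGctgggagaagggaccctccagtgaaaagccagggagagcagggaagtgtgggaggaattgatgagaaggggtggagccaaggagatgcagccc
Zfp229 (chr17:21733474-21733723, plus strand): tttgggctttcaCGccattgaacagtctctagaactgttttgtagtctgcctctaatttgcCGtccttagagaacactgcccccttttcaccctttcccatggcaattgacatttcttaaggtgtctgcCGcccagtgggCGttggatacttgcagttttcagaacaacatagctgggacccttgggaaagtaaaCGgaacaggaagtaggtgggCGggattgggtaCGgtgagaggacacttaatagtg
Zfp956 (chr6:47953140-47953389, plus strand): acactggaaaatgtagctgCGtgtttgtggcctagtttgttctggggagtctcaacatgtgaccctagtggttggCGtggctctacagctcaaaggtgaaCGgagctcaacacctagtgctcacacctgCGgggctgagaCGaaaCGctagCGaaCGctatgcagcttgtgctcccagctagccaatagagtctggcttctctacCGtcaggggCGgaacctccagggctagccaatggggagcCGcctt
These stretches held 2 CpG before Zfp710, 7 before Zfp229 and 11 before Zfp956. The first listed start may not be the one used in these cells.

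The Zfp genes were moderately expressed in SSCs and c-KIT+ cells. The mean over the 8 libraries ran from 2.27 to 85.1 FPKM with a median of 6.71, against a median of 14.6 over the 9590 genes of any kind that met the same floor. Only 22 members were at 20 FPKM or more, and 64 were under 5. The highest was Zfp207, a partner of BUB3 that helps chromosomes attach to the spindle, at 82.7 and 75.3 FPKM in WT SSCs, 82.7 and 83.7 in KO SSCs, 86.8 and 88.0 in WT c-KIT+ cells, and 88.6 and 92.5 in KO c-KIT+ cells. The cultured groups thus lay close together, and the 4 spermatocyte libraries were lower, between 29.8 and 41.3 FPKM. The next were Zfp217, a corepressor partner, Zfp664, Zfp622, which acts in the maturation of the large ribosomal subunit, and Zfp598, a ubiquitin ligase of stalled ribosomes. Their levels in WT SSCs were 49.4 and 46.5, 55.9 and 56.1, 45.6 and 42.2, and 38.9 and 35.5 FPKM. At the other end Zfp14, Zfp964, Zfp932, Zfp951 and Zfp524 lay between 2.0 and 3 FPKM in every cultured library.

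**Figure D1:**
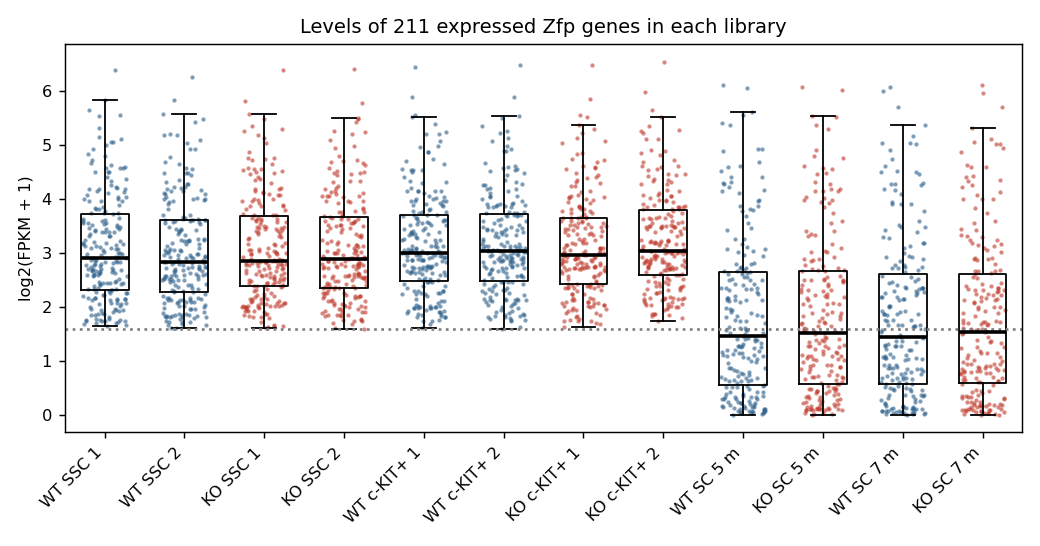
Levels of the 211 expressed Zfp genes in each library, as log2(FPKM + 1), with 1 point per gene, the box from the lower to the upper quartile and the median as a thick line. The dotted line marks 2 FPKM, which every gene reached by rule in the 8 SSC and c-KIT+ libraries (medians 6.16 to 7.25 FPKM); in the 4 spermatocyte (SC) libraries the medians were 1.71 to 1.9 FPKM and 110 to 112 genes lay under the line.

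RA asks how the genes behave as stem cells are driven toward meiosis. In WT, 41 of the 211 Zfp genes rose (19.4%) and 18 fell (8.53%) at an adjusted p under 0.01 (limma on log2 of FPKM + 1, Benjamini-Hochberg over 11981 genes). Among all genes tested 24.9% rose and 15.9% fell, and among those at the same floor 23.4% and 16%, so that both shares lay below the background, and the difference in shares was not tested. The median log2 fold change was 0.11 for the Zfp genes and 0.08 for all genes tested. In KO, 50 rose and 17 fell, where 24.6% and 16% of all genes and 23.5% and 16.1% of those at the floor did. Scaling the libraries to an equal total gave 65 and 13 in WT, quantile normalization 30 and 24, and median-ratio scaling 32 and 23, against 40 and 24 and 41 and 25 in KO with the latter pair, so the balance of the directions depends on the scaling. Single libraries also moved the counts. Those that rose in WT numbered 26 without the second WT SSC library and 26 and 23 without the first and the second WT c-KIT+ library, and those that fell numbered 9 without the first WT SSC library and 10 and 9 without either WT c-KIT+ library. In KO the counts that rose were 31 and 24 without the first and the second KO SSC library and 24 without the second KO c-KIT+ library, and those that fell were 8, 11 and 10 without the first or second KO SSC library or the first KO c-KIT+ library. Fewer cells of a type and less RNA per cell cannot be told apart in such libraries.

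The largest decreases were those of Zfp462, Zfp428, Zfp710, Zfp365 and Zfp330. Zfp462, a protein with many fingers that is linked to heterochromatin in embryonic stem cells, was at 32.2 and 31.9 FPKM in WT SSCs, 26.2 and 26.9 in KO SSCs, 10.5 and 10.5 in WT c-KIT+ cells, and 9.36 and 9.97 in KO c-KIT+ cells. All SSC libraries were above all c-KIT+ libraries, and the log2 fold change was -1.52 in WT (SE 0.05, adjusted p = 2.36e-07, limma) and -1.37 in KO (SE 0.05, adjusted p = 3.56e-07). Zfp710 was at 46.2 and 43.5, 39.8 and 37.5, 22.5 and 21.4, and 21.3 and 21.1 FPKM in the same order of groups, again without overlap, with log2 fold changes of -1.0 and -0.84. Zfp428 fell from 25.3 and 20.9 to 10.5 and 9.17 FPKM in WT (-1.14, SE 0.10, adjusted p = 3.46e-05, limma) and from 21.5 and 22.9 to 9.23 and 10.5 in KO (-1.09). Zfp330, a nucleolar protein with 19.1% of its 50-base stretches shared, fell by 0.62 in WT and 0.79 in KO on the log2 scale, and Zfp365 by 0.90 and 0.88.

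The 5 largest increases in WT belonged to Zfp800, Zfp809, Zfp382, Zfp467 and Zfp511. Zfp809, which silences murine retroviruses by binding their primer site, was at 4.13 and 4.05 FPKM in WT SSCs, 3.41 and 3.75 in KO SSCs, 8.54 and 8.22 in WT c-KIT+ cells, and 7.54 and 8.3 in KO c-KIT+ cells. It rose by 0.88 on the log2 scale in WT (SE 0.07, adjusted p = 2.19e-05, limma) and 0.96 in KO (SE 0.07, adjusted p = 1.36e-05), with no overlap between SSC and c-KIT+ libraries. Zfp800 was at 2.86 and 2.73, 2.75 and 3.02, 5.61 and 6.63, and 5.65 and 5.69 FPKM in the same order, with log2 fold changes of 0.90 (SE 0.08) and 0.78. Zfp382 rose by 0.81 in WT and 0.53 in KO, Zfp511 by 0.61 and 0.88, and Zfp467 by 0.61 and 0.45. In KO the 5 largest also held Zfp568 (0.73) and Zfp167 (0.68, and 0.61 in WT). On this scale the changes of genes at 2 to 5 FPKM are understated.

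Most calls were shared by the genotypes. Of the called genes 34 rose in both and 14 fell in both, 7 rose and 4 fell in WT without a call in KO, and 16 rose and 3 fell in KO without a call in WT. Across the 211 genes the log2 fold changes had a Pearson r of 0.93, as a description across genes that share their libraries and are not independent. Neither these counts nor this r were taken over all genes tested or over those at the floor. Whether the sharing is particular to the Zfp genes was not tested. The interaction tests whether the RA effect differed by genotype. It was called for 0 of the 211 genes and 0% of all genes tested (limma, adjusted p under 0.01). An unadjusted p under 0.05 was found for 865 of the 11981 genes tested and for 11 of the 211. The smallest p was that of Zfp57, a KRAB protein that keeps imprints. It was at 4.98 and 3.98 FPKM in WT SSCs, 3.91 and 3.96 in WT c-KIT+ cells, 5.58 and 4.99 in KO SSCs, and 3.21 and 3.05 in KO c-KIT+ cells, an interaction of -0.46 (SE 0.14, adjusted p = 0.509, limma).

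**Figure D2:**
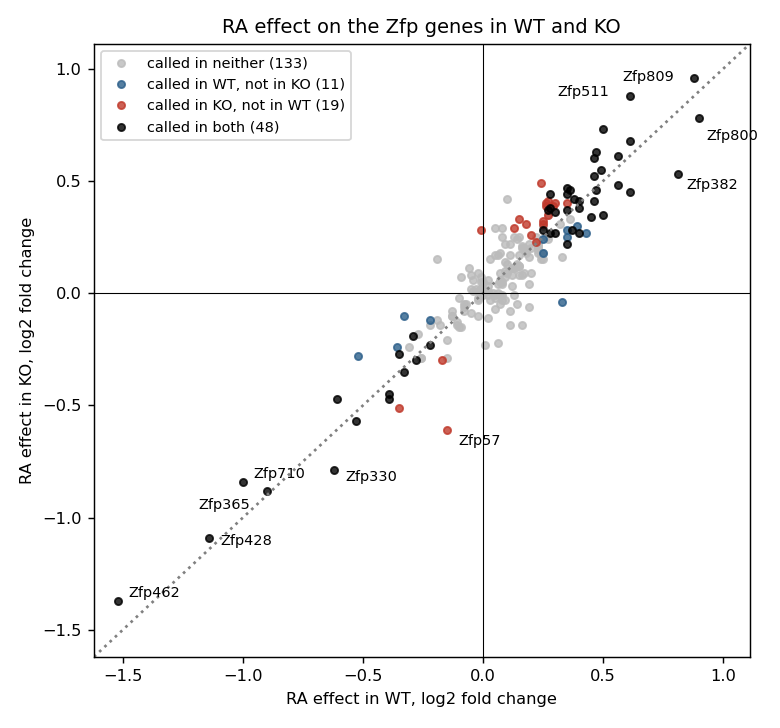
RA effect on each of the 211 Zfp genes, as log2 fold change of FPKM + 1 in WT on the x axis and in KO on the y axis, coloured by the call at an adjusted p under 0.01. The dotted line marks equal effects. The 48 genes called in both (34 up, 14 down) lie along it, from Zfp462 at -1.52 and -1.37 to Zfp809 at 0.88 and 0.96, and Zfp57 lies below it at -0.15 and -0.61.

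Genes of 4 role lists were among those named, and their counts stand against 24.9% of all genes tested that rose and 15.9% that fell in WT, and 24.6% and 16% in KO, with medians of 0.08 and 0.07. Of 5 members that silence retroelements or keep imprints, 3 rose in WT and 4 rose and 1 fell in KO, with median log2 fold changes of 0.38 and 0.42. They were Zfp809 and Zfp57 (above), Zfp568, which represses a placental transcript of Igf2, Zfp445, which keeps imprints together with Zfp57, and Zfp42, a marker of pluripotent cells also called Rex1. Zfp568 was at 4.93 and 4.77 FPKM in WT SSCs and 7.12 and 7.43 in WT c-KIT+ cells, and Zfp445 at 9.95 and 9.7 and at 12.6 and 13.5. Their c-KIT+ libraries were all above their SSC libraries in WT. Zfp42 was at 14.6 and 14.3 FPKM in WT SSCs and 16.2 and 15.7 in WT c-KIT+ cells and was not called in WT (0.13), while it was called in KO (0.29).

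Of 16 promoter and chromatin regulators, 6 rose (37.5%) and 3 fell (18.8%) in WT, and 6 rose and 2 fell in KO, with medians of 0.17 and 0.18. Those that rose in WT were Zfp516 (0.46), Zfp410 (0.40), Zfp644 (0.40), which works with the G9a methyltransferase complex, Zfp238 (0.37), Zfp687 (0.36) and Zfp217 (0.27). Those that fell were Zfp462, Zfp532 (-0.39) and Zfp219 (-0.33). Zfp687 and Zfp532 are known as partners in the same complex, and they moved in opposite directions, Zfp687 from 27.7 and 26.3 to 35.8 and 34.0 FPKM and Zfp532 from 15.1 and 14.7 to 11.1 and 11.2 in WT. Zfp143, Zfp281 and Zfp148, which bind many promoters, were not called in either genotype, with log2 fold changes of 0.02, 0.15 and 0.18 in WT. Neither were Zfp335 (-0.10), Zfp296 (0.01), the X-linked Zfp711 (0.23) and Zfp161 (-0.31).

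Among 11 members that act on RNA, ubiquitin, SUMO, translation or the spindle, 2 rose (18.2%) and 1 fell (9.09%) in WT and 3 rose and 1 fell in KO, with medians of 0.12 and 0.11. The one that fell was Zfp36, or tristetraprolin, which speeds the decay of mRNAs with AU-rich elements. It was at 22.8 and 19.0 FPKM in WT SSCs, 22.2 and 21.3 in KO SSCs, 14.5 and 13.8 in WT c-KIT+ cells, and 13.1 and 15.7 in KO c-KIT+ cells. All SSC libraries were higher, with log2 fold changes of -0.53 and -0.57. Zfp106, an RNA-binding protein, rose by 0.50 and 0.35, and Zfp318, a nuclear protein abundant in testis, by 0.30 and 0.36. Zfp91, a ubiquitin ligase, was called in KO (0.26) but not in WT (0.20). Zfp207, Zfp326, Zfp451, Zfp598, Zfp622, Zfp706 and Zfp830 were not called in either genotype. Of 4 members listed for germ cells and testis, 1 rose in WT (25%) and 3 rose in KO (75%), with medians of 0.111 and 0.285. Zfp39 rose in both (0.45 and 0.34). Zfp105 (0.28) and Zfp42 (0.29) were called in KO but not in WT, and Zfp35 was not called in either.

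The silencing factors that KRAB proteins recruit were expressed in the same cells at levels that varied. The 18 measured genes of this list had a median of 39.8 FPKM, but in WT SSCs Hdac1 was at 7.33 and 8.43 FPKM and Smarcad1 at 10.2 and 9.8. In WT 5 rose (27.8%) and 4 fell (22.2%), where 24.9% and 15.9% of all genes tested did. In KO 6 rose (33.3%) and 5 fell (27.8%), where 24.6% and 16% did. The median log2 fold changes were 0.02 in both genotypes, below those of all genes tested. Trim28, the protein that KRAB domains bind, was at 170 and 163 FPKM in WT SSCs and 141 and 138 in WT c-KIT+ cells, which fell by 0.25 on the log2 scale. Setdb1, the H3K9 methyltransferase, was at 55.3 and 55.7 and at 61.7 and 62.7 FPKM, and was not called in WT (0.16) while it was in KO (0.19). Chd4, a nucleosome remodeller whose transcription depends on Zfp410, fell by 0.64 in WT and 0.49 in KO, while Zfp410 rose from 22.7 and 22.4 to 30.6 and 29.3 FPKM in WT. Pphln1 (-0.83) and Smarcad1 (-0.23) also fell in WT, and Cbx1 (0.30), Dnmt1 (0.23), Morc3 (0.20), Hdac2 (0.21) and Hdac1 (0.36) rose.

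The knockout asks whether loss of Zmym3 changes the genes in the same cell state. In SSCs 2 of the 211 Zfp genes were higher in KO and 3 lower (limma, adjusted p under 0.01), where 2.11% and 2.79% of all genes tested and 1.87% and 2.27% of those at the floor were. An unadjusted p under 0.05 was found for 50 of the 211, against 3395 of the 11981 genes tested and 2629 of the 9590 at the floor. After RA none was higher in KO and 1 was lower, where 1.11% and 1.59% of all genes tested and 1.04% and 1.23% of those at the floor were. Here an unadjusted p under 0.05 was found for 38 of the 211, against 2734 of the 11981 genes tested and 2032 of the 9590 at the floor. The median log2 fold change was 0.03 in both cell states, against 0.01 over all genes tested. Across the 211 genes the 2 knockout effects had a Pearson r of 0.72, as a description, and no such r was taken over all genes. The c-KIT+ cells were made from the SSCs, so that differences between lines are shared, and nothing in the labels separates line from genotype. Fibroblast and peritubular genes moved with genotype. Their summed level over 7 genes was 72.3 to 74.1 FPKM in WT SSCs and 49.1 to 50.1 in KO SSCs, and 73.5 to 74.9 and 48.9 to 51.4 in c-KIT+ cells, with 4 of the 7 lower in KO in each cell state and 5 of the 7 above 1 FPKM in all 8 libraries. Genes of undifferentiated spermatogonia summed to 411 to 438 FPKM in WT and 385 to 389 in KO SSCs, with 3 of 11 called lower, and to 210 to 213 and 182 to 193 in c-KIT+ cells, with 1 of 11 called lower. The 8 pachytene genes summed to 104 to 107 FPKM in WT and 122 to 135 in KO SSCs, with 1 of 8 called higher. The part of these lists in the results was not tested.

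Zfp229, a KRAB gene with 16 finger patterns, was the one Zfp gene called in both cell states. It was at 9.5 and 9.14 FPKM in WT SSCs and 4.66 and 4.39 in KO SSCs, and at 12.1 and 12.1 in WT c-KIT+ cells and 6.42 and 6.61 in KO c-KIT+ cells. Each KO library was below each WT library, and the log2 fold change was -0.90 between the SSCs (SE 0.06, limma adjusted p = 8.35e-05). Between the c-KIT+ cells it was -0.80 (SE 0.06, limma adjusted p = 0.000168). It rose with RA in both genotypes (0.35 and 0.44), and in spermatocytes it was low in both, at 0.3 and 0.294 FPKM in WT and 0.355 and 0.241 in KO at 5 and 7 months. It shares 0.141% of its 50-base stretches with other genes. Its locus in mm9 is chr17:21870691-21885936, in a cluster of 8 members that all carry the KRAB-type pattern. The other 7, Zfp51, Zfp53, Zfp948, Zfp760, Zfp942, Zfp944 and Zfp946, had log2 fold changes from -0.04 to 0.35 in KO SSCs and none was called. Of 26 other genes tested within 2 Mb of Zfp229, 1 was called in SSCs, Zfp160 (0.43, adjusted p = 0.00728, limma), which lies at chr17:21145905-21165820 and was higher in KO, and their median was 0.01. None of the 26 was called lower in either cell state.

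The other 4 calls in SSCs were smaller. Zfp639 was at 7.75 and 7.43 FPKM in WT and 9.92 and 9.88 in KO (0.34, SE 0.05, adjusted p = 0.00428, limma), and Zfp111 at 4.74 and 4.52 and at 6.22 and 6.23 (0.36, SE 0.06, adjusted p = 0.00735). Zfp105, a testis gene, was at 14.6 and 15.2 FPKM in WT and 11.2 and 11.4 in KO (-0.37, SE 0.06, adjusted p = 0.00825), and Zfp462 at 32.2 and 31.9 and at 26.2 and 26.9 (-0.26, SE 0.05, adjusted p = 0.00997). None of these groups overlapped. After RA these genes gave 0.21, 0.27, -0.08 and -0.11 in the order Zfp639, Zfp111, Zfp105 and Zfp462, none past the threshold. The difference between cell states was not called for any of them, as with Zfp105 (0.29, SE 0.09, adjusted p = 0.513). Leaving out any of the 4 SSC libraries or either WT c-KIT+ library left 0 genes higher, and leaving out any of these but the second WT SSC library left 1 gene lower. The corepressor Hdac1 was at 7.33 and 8.43 FPKM in WT SSCs and 11.9 and 12.9 in KO SSCs (0.60), and at 10.5 and 10.2 and at 15.4 and 15.5 in c-KIT+ cells (0.54), and was the 1 gene of its list called by genotype.

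**Figure D3:**
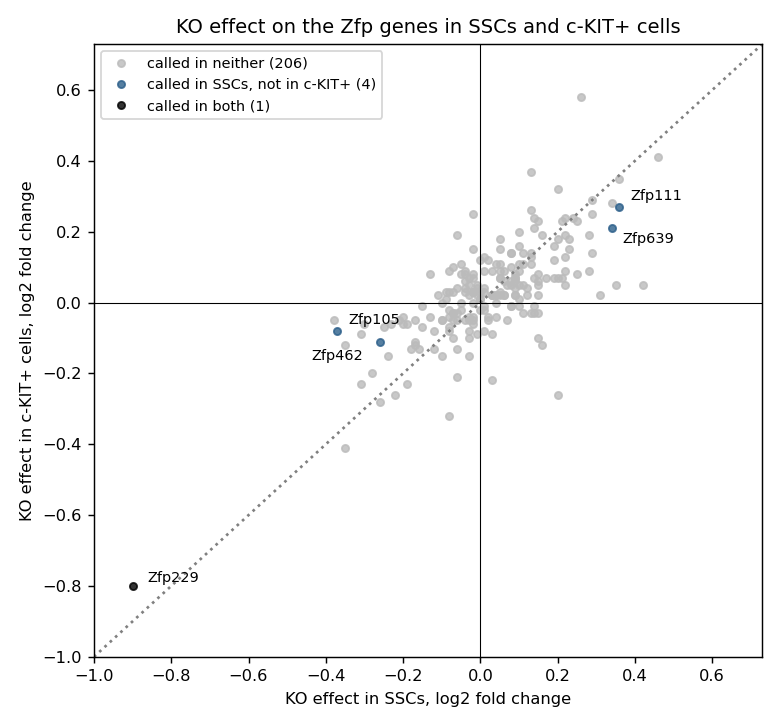
KO effect on each of the 211 Zfp genes, as log2 fold change of FPKM + 1 in SSCs on the x axis and in c-KIT+ cells on the y axis, coloured by the call at an adjusted p under 0.01, with the dotted line for equal effects. Most points lie near 0 in both directions, and Zfp229 stands alone at -0.90 and -0.80.

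Spermatocytes held less of most Zfp genes than SSCs did. Culture, sorting and cell state cannot be told apart in this comparison and the level in SSCs chose the genes, so the ratios are descriptions without a test. On the log2(FPKM + 1) scale 123 of the 211 genes were past a 2-fold decrease in both WT spermatocyte libraries relative to the mean of the WT SSC libraries, and 14 past a 2-fold increase. Of all genes tested 49.4% and 11.7% were, and of the genes at the same floor 52.7% and 10.4%, against 58.3% and 6.64% of the Zfp genes. The median log2 ratio was -1.42 for the Zfp genes, -1.27 for all genes at the floor and -1.08 for all genes tested. The general shift depends on scaling: under quantile normalization the median of all genes tested was -0.02 and the counts were 34 lower and 38 higher. Median-ratio scaling gave 98 lower and 19 higher. With 0.1 added to FPKM in place of 1 there were 135 lower and 15 higher. Adding 1 understates changes at low levels, so that Zfp14 was not counted as lower, at 2.21 and 2.3 FPKM in WT SSCs and 0.734 and 0.561 in WT spermatocytes. In both WT spermatocyte libraries 73 of the 211 were under 1 FPKM (34.6%, against 24.1% of the genes at the floor), and 95 were still at 2 FPKM or more (45%, against 64.1%). Such fixed cuts do not allow for the level in culture, which had a median of 6.71 FPKM for the Zfp genes and 14.6 for all genes at the floor.

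Zfp956 was far above the rest. It was at 2.52 and 2.89 FPKM in WT SSCs, 2.46 and 2.06 in KO SSCs, 4.67 and 3.77 in WT c-KIT+ cells, 3.73 and 3.79 in KO c-KIT+ cells, and 68.2 and 66.3 in WT and 64.2 and 68.6 in KO spermatocytes at 5 and 7 months. The WT spermatocyte mean was 24.9 times that of WT SSCs, on 4374 fragments at 5 months, and it rose with RA by 0.49 in WT (SE 0.11, adjusted p = 0.0041, limma) and 0.55 in KO. Its locus at chr6:47903389-47915298 (mm9) overlaps that of Zfp783, and 7.15% of its 50-base stretches are shared. Zfp39 went from 3.67 and 3.47 FPKM in WT SSCs to 24.9 and 21.6 in WT spermatocytes, Zfp574 from a mean of 7.57 to 40.2, Zfp367 from 3.13 to 19.2 and Zfp35, whose transcript is known from pachytene cells, from 9.70 to 38.9. The other 9 were Zfp653, Zfp800, Zfp511, Zfp438, Zfp91, Zfp318, Zfp41, Zfp382 and Zfp167. Zfp318 reached 65.5 and 63.4 FPKM. Of these 14, Zfp956, Zfp39, Zfp653, Zfp800, Zfp511, Zfp438, Zfp318, Zfp382 and Zfp167 also rose with RA in both genotypes. Among all 211 Zfp genes 34 did. In WT both comparisons use the same SSC libraries, so that low values there raise both. No such count was taken over all genes higher in spermatocytes. Whether the overlap exceeds that of other genes was not tested.

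On the log2(FPKM + 1) scale the deepest decreases were those of Zfp710, Zfp462, Zfp7, Zfp740 and Zfp553. As plain ratios of FPKM the order differed, with Zfp7 (346-fold), Zfp703 (325-fold) and Zfp462 (309-fold) first and Zfp710 at 169-fold, and those of Zfp7 and Zfp703 rest on 5 and 1 fragments at 5 months. Zfp710 was at 0.263 and 0.269 FPKM in WT spermatocytes against a mean of 44.8 in WT SSCs, and Zfp462 at 0.106 and 0.102 against 32.1. These levels of Zfp710 and Zfp462 rest on 16 and 28 fragments at 5 months. Zfp7, which shares 20.6% of its 50-base stretches, Zfp740 and Zfp553 had log2 ratios of -4.44, -4.22 and -3.84. Zfp365 was listed at 0 in 3 of the 4 spermatocyte libraries. Of the 16 promoter and chromatin regulators 15 (93.8%) were past the 2-fold decrease, where 58.3% of the Zfp genes and 52.7% of all genes at the floor were, and their median log2 ratio was -1.95. The list was not counted under quantile normalization, which left 34 of the 211 genes past the decrease. The exception was Zfp238, which was at 22.0 and 17.2 FPKM in WT spermatocytes against 17.5 and 17.6 in WT SSCs. Among 11 RNA, ubiquitin, SUMO, translation and spindle members, 4 were lower and 2 higher, the latter being Zfp91 and Zfp318. Of the 4 genes of germ cells and testis 2, Zfp35 and Zfp39, were higher and none lower. The 3 members on chromosome X, Zfp275, Zfp449 and Zfp711, were all past the decrease and under 1 FPKM, as were 94.5% of the 347 X-linked genes at the floor. The X chromosome is known to be silenced in pachytene cells.

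**Figure D4:**
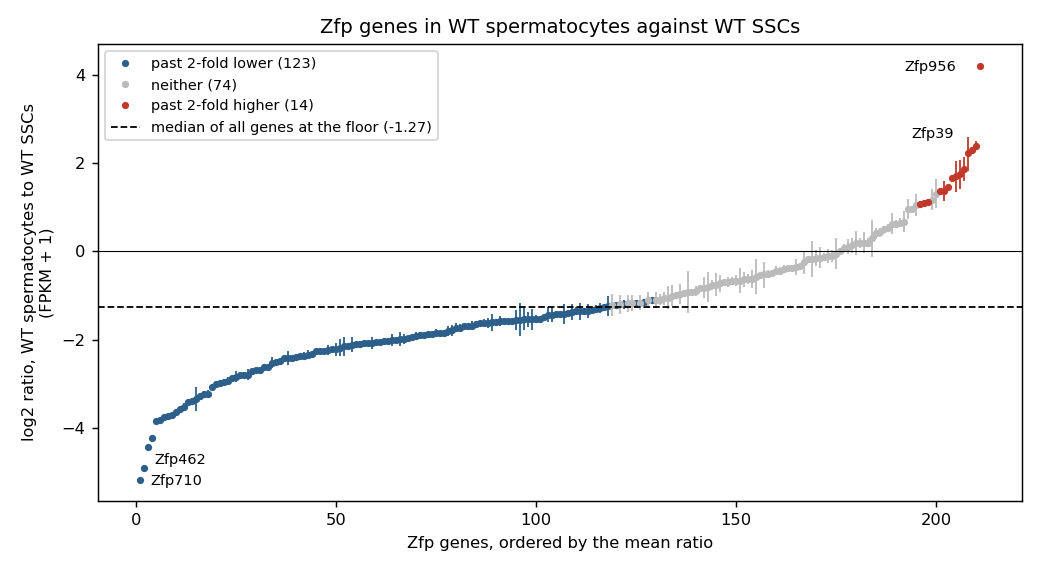
log2 ratio of WT spermatocytes to WT SSCs (FPKM + 1) for each of the 211 Zfp genes, ordered by the mean ratio, with vertical lines from the 5-month to the 7-month library. Of these, 123 genes lie past 2-fold lower and 14 past 2-fold higher, the dashed line is the median of all genes at the floor (-1.27), and Zfp956 stands highest at 4.21.

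Genotype left no called change in spermatocytes. Of 136 members that reached 1 FPKM in 2 or more of these libraries, 0 were called (limma with age as a block, adjusted p under 0.05), where 0.332% of all genes tested were higher and 1.34% lower. Among the 7287 tested genes at the floor in the cultured libraries only 0.178% were higher and 0.137% lower, so few calls are to be had in such a set. Against 520 of these 7287 genes, 3 members had an unadjusted p under 0.05. The log2 fold changes ran from -0.39 to 0.25, and the smallest adjusted p was 0.253, for Zfp622. It was at 3.46 FPKM in WT and 2.63 in KO at 5 months, and at 4.11 and 2.84 at 7 months, so that KO was lower at both ages. KO was below WT at both ages for 52 of the 211 members and above it for 54. These counts include the 73 members under 1 FPKM in both WT libraries, and they were not taken over all genes. With 1 residual degree of freedom the fit can miss real differences. Spermatid markers moved with genotype, with a summed level of 446 to 498 FPKM in WT and 206 to 238 in KO over 6 genes, all above 1 FPKM in these libraries. Sertoli cell markers moved the other way, at 2.58 to 2.81 FPKM in WT and 5.65 to 12.6 in KO over 5 measured genes, of which 1 was above 1 FPKM in all 4 libraries. The part of either list was not tested.

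The genes lay on 20 chromosomes, with 53 on chromosome 7, 24 on chromosome 17 and 18 on chromosome 8. Members whose starts follow each other within 1 Mb in the mm9 positions of the WT 5-month library, 3 or more together, formed 20 clusters with 103 members. The other 108 lay outside. Clustered members had a median level of 5.79 FPKM and the others 8.26. With RA in WT, 19 clustered members rose (18.4%) and 8 fell (7.77%), against 22 (20.4%) and 10 (9.26%) outside. Of all genes at the floor 23.4% rose and 16% fell. Past the 2-fold decrease in spermatocytes were 58 clustered members (56.3%) and 65 outside (60.2%), where 52.7% of all genes at the floor were.

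Within clusters the genes often differed. The largest, 11 members from Zfp84 to Zfp146 at chr7:30553571-30954746, held 8 with the KRAB-type pattern. Its levels in WT SSCs ran from near 2 FPKM for Zfp14 and Zfp382 to 16.7 and 17.6 for Zfp146. With RA 2 of the 11 rose in each genotype, Zfp382 and Zfp568, where 23.4% of all genes at the floor rose in WT and 23.5% in KO. In spermatocytes the log2 ratios of the cluster went from -3.52 for Zfp566 to 1.09 for Zfp382. Zfp566 was at 12.3 and 11.2 FPKM in WT SSCs and at 0.0549 and 0.174 in WT spermatocytes. Zfp382, by contrast, was higher in spermatocytes, at 5.92 and 6.63 FPKM.

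The second cluster, 10 members from Zfp180 to Zfp526 at chr7:24866963-26012524, held Zfp428, which fell with RA, and Zfp574, which was higher in spermatocytes. Its log2 ratios in spermatocytes had a median of -0.42 and ran from -2.34 for Zfp235 to 2.22 for Zfp574. In KO SSCs 8 of the 10 had positive log2 fold changes, with a cluster median of 0.08, and Zfp111 was called. Positive values there were found for 118 of the 211 Zfp genes and 6265 of the 11981 genes tested. Zfp109, Zfp93, Zfp94 and Zfp61 were called in no comparison. The third, the 8 KRAB-type genes around Zfp229 at chr17:21587316-22593656, had a median of -1.58, with Zfp51 at -0.14 (2.86 and 3.12 FPKM in WT SSCs, 3.3 and 2.07 in WT spermatocytes). In both WT spermatocyte libraries 5 of the 8 were under 1 FPKM, where 24.1% of all genes at the floor were.

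Some smaller clusters were more alike. All 5 members from Zfp317 to Zfp846 at chr9:19426535-20399637, each with the KRAB-type pattern, were past the 2-fold decrease in spermatocytes, with log2 ratios from -3.07 to -1.24. Among all genes at the floor 52.7% were past it. The 3 members Zfp445, Zfp167 and Zfp105 at chr9:122758028-122840146 were all called higher with RA in KO and had the highest cluster median of RA effect in KO after that of chr6:47870567-48395824 (0.42 and 0.45). The latter, from Zfp212 to Zfp467, holds Zfp956, and 4 of its 5 members rose in KO, where 23.5% of all genes at the floor did. In the cluster from Zfp553 to Zfp646 at chr7:134376957-135029510, ratios in spermatocytes ran from -3.84 to 1.31 within 0.65 Mb. These clusters were picked after their values were seen.

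**Figure D5:**
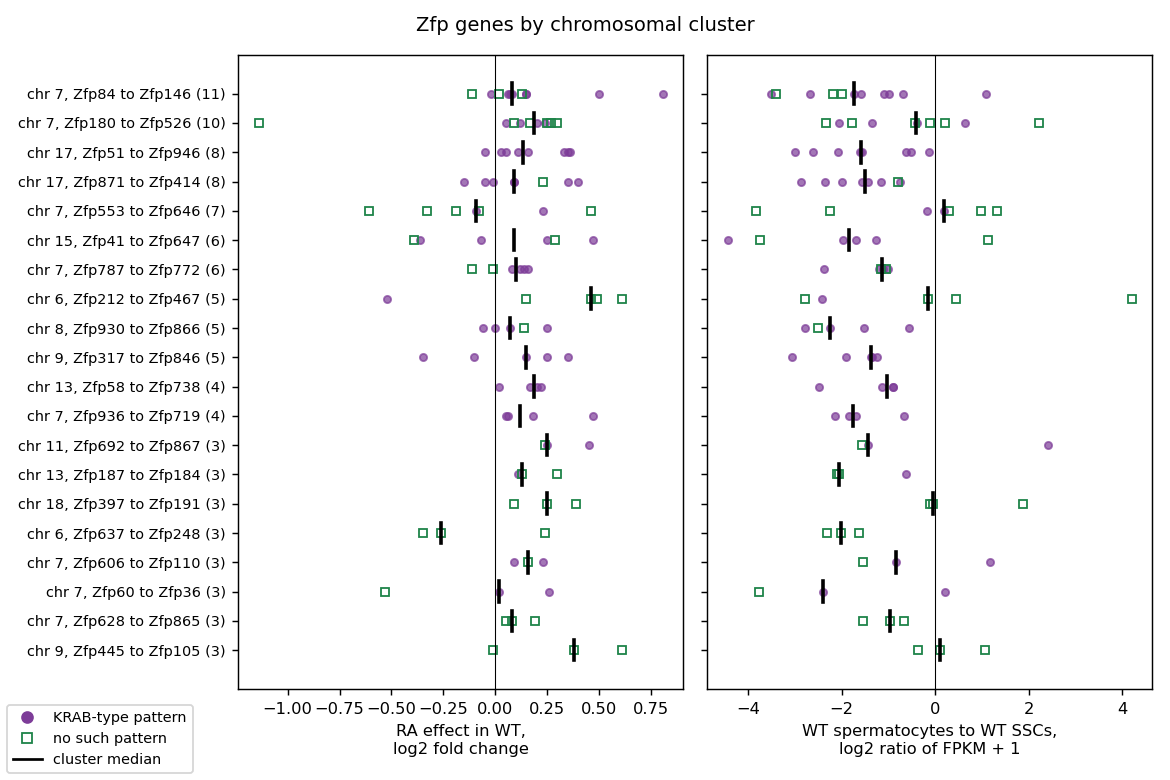
The 103 clustered Zfp genes by cluster (rows, with the first and last member and the number of members), showing the RA effect in WT as log2 fold change on the left and the log2 ratio of WT spermatocytes to WT SSCs (FPKM + 1) on the right. Filled circles carry the KRAB-type pattern, open squares do not, and the bar is the cluster median, which ran in spermatocytes from -2.41 to 0.19; within the third row, for example, ratios ran from -2.99 to -0.14.

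The KRAB-type pattern went with lower levels. The median over the cultured libraries was 5.12 FPKM for the 89 members with it and 9.66 for the 122 without. With RA in WT, 16 rose (18%) and 4 fell (4.49%) among those with it, against 25 (20.5%) and 14 (11.5%) without. In KO 14 rose (15.7%) and 2 fell (2.25%) with it, against 36 (29.5%) and 15 (12.3%) without. Of all genes at the floor 23.4% rose and 16% fell in WT, and 23.5% and 16.1% in KO. These differences in shares were not tested. In spermatocytes 43 of the 89 (48.3%) and 30 of the 122 (24.6%) were under 1 FPKM in both WT libraries, where 24.1% of all genes at the floor were. This cut does not allow for the lower level in culture of the members with the pattern. Past a 2-fold increase were 2 (2.25%) and 12 (9.84%), where 10.4% of all genes at the floor were. The median log2 ratios of FPKM + 1 were -1.44 with the pattern and -1.41 without it. Other zinc finger families at the same floor were small, and no test compared them with the Zfp genes. Of 31 Zbtb genes 5 rose (16.1%) and 3 fell (9.68%) with RA in WT and 20 (64.5%) were past the decrease in spermatocytes. Of 8 Zscan genes 1 rose (12.5%), 1 fell (12.5%) and 3 were past it (37.5%). Of 8 Zkscan genes 4 rose (50%), 0 fell and 4 were past it (50%). Among all genes at the floor 23.4% rose, 16% fell and 52.7% were past the decrease. The median log2 ratios in spermatocytes were -1.41, -0.08 and -0.99 for the Zbtb, Zscan and Zkscan genes.

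Outside the rule lay 125 Zfp genes that did not reach the floor, of which 77 were still tested. With these, 288 Zfp genes gave 64 higher (22.2%) and 21 lower (7.29%) with RA in WT and 70 (24.3%) and 19 (6.6%) in KO. Of all genes tested 24.9% were higher and 15.9% lower in WT, and 24.6% and 16% in KO. Among the 125, 4 were listed at 0 in all 12 libraries and 11 were at 2 FPKM or more in all 4 spermatocyte libraries. The highest of these were Zfp541, a gene of meiotic germ cells, at 40.5 and 51.9 FPKM in WT spermatocytes and 0.875 to 1.78 in the cultured libraries, Zfp672 at 22.9 and 17.2, and Zfp654 at 22.6 and 13.2.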

How the data were processed

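RNA was sequenced from 12 libraries. FPKM per gene were deposited as the authors made them with Cufflinks 2.0.2, after alignment by TopHat2 2.0.6 against mm9, per their methods and the submitters' processing notes; FPKM are relative values, and neither read counts nor strandedness are given in the sources used here. Of 23021 entries a file, 728 with repeated symbols were left out.

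FPKM were compared as log2(FPKM + 1) with limma 3.58.1 (R 4.3.3; trend, Benjamini-Hochberg) in 1 fit of 4 groups of 2 libraries, over genes at 1 FPKM or more in at least 2 libraries, at an adjusted p under 0.01. Spermatocytes were fitted apart by genotype with age as a block, at an adjusted p under 0.05. Spermatocytes against SSCs, clusters and sequences were described with no test. Finger and KRAB-type patterns were searched with Python 3.11.15 in GENCODE transcripts. The fit was tested on simulated data. Alternatives were another pseudocount, filter, threshold, scaling, the replicate block and leaving out each library.

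The genes named were Zmym3, the role lists, the 5 highest and 5 lowest by level, the 5 largest calls in each direction, the 5 largest ratios in spermatocytes, the 3 largest clusters, the genes nearest the floor and called corepressors. Members and lists were chosen with earlier results of these data known.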

Additional observations from a re-analysis of the deposited data

How the results depend on the processing

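No called RA or KO effect of a named gene changed sign under the alternatives run, but the balance of counts turned in places. At an adjusted p under 0.05 the genes that rose with RA numbered 75 in WT and 80 in KO, and KO against WT gave 11 higher and 12 lower in SSCs and 7 and 3 in c-KIT+ cells. Equal totals gave 65 higher with RA in WT, 10 higher and 1 lower in SSCs, against 2 and 3, and 1 and 2 in c-KIT+ cells. The first WT SSC library, with Mir3064 at 26700 FPKM, summed to 302340 FPKM, and the other cultured libraries to between 264539 and 274670. Equal totals scale all genes of that library down. The median over all genes tested went from 0.076 to 0.145 for RA in WT and from 0.008 to 0.074 for KO in SSCs. Without the floor of 2 FPKM, 64 rose in WT, and KO gave 4 and 8 in SSCs and 3 lower in c-KIT+ cells. With no filter SSCs gave 1 and 1. Median-ratio scaling gave 4 and 5 in SSCs and 2 lower in c-KIT+ cells. Quantile normalization gave 5 lower in SSCs, where Zfp639 was still called higher, and 2 lower in c-KIT+ cells. The number higher under it is not given here. In spermatocytes against SSCs it gave 38 higher and 34 lower, in place of 14 and 123. The cause of these changes was not tested.

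Deviations of same-numbered libraries correlated at 0.169 between SSCs and c-KIT+ cells of WT and 0.283 in KO, and between -0.072 and 0.093 across genotypes, so a pairing over all 4 groups was not established and one within each genotype was not settled. With the replicate number as a block the counts were 41 and 18 with RA in WT, 47 and 15 in KO, 1 and 2 in SSCs and 0 and 1 in c-KIT+ cells. Leaving out each library in turn gave 23 to 42 higher and 9 to 20 lower with RA in WT, 24 to 48 and 8 to 19 in KO, 0 to 2 and 1 to 3 for KO in SSCs, 0 to 1 and 1 to 2 in c-KIT+ cells, 0 for the interaction, and 14 to 17 higher and 124 to 135 lower in spermatocytes. Zfp229 was called in both cell states under all 16 alternatives, while Zfp639, Zfp105, Zfp111 and Zfp462 held their call in SSCs in 10, 7, 6 and 5 of 16. Leaving out a spermatocyte library leaves no residual degree of freedom for genotype and was not run. Low levels in spermatocytes rest on few fragments.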
